A study of Mus musculus with 8 samples.

Results

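Transcription factor genes of the interferon regulatory factor (IRF) and STAT families were followed in mouse dorsal root ganglia, the ganglia that hold the cell bodies of sensory neurons, before and after an inflammation of the hind paw. The 9 genes, Irf1, Irf2, Irf3, Irf5, Irf7, Irf8, Irf9, Stat2 and Stat3, were taken by name from the 24421 genes of the count table. They were chosen with earlier results of these data known. All 9 were among the 17328 genes with enough counts to be tested. The samples came from male C57BL/6J wild-type mice, 8 to 12 weeks old, before the injection (0d) or 1, 3 or 30 days (1d, 3d, 30d) after 20 µl of 1% carrageenan, a seaweed polysaccharide that inflames tissue, was injected under the skin of the left hind paw. The 0d control was taken before the injection, so no vehicle-injected group stands beside the later time points. Each time point had 2 libraries, each from lumbar ganglia of 2 to 3 pooled mice, so n = 2 pools throughout and the spread between them is that of pools, not of single animals.

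IRF and STAT proteins carry interferon signals to the genome. Sensors of nucleic acids and of microbial products activate IRF3 and IRF7, which switch on type I interferon genes, and interferon bound to its receptor activates JAK kinases, which phosphorylate STAT proteins. STAT2 joins IRF9 and a further STAT in the complex ISGF3, which binds the interferon-stimulated response element (ISRE) in front of interferon-stimulated genes, among them Irf7 itself. IRF1 is an activator that interferon-gamma induces through a second element, GAS, and IRF2 competes with it for the same sites. IRF5 and IRF8 act mainly in macrophages and other myeloid cells, and STAT3 carries signals of interleukin-6 and related cytokines, in sensory neurons after nerve injury among other places.

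The sequences in front of the members that were highest at 1d are shown first, since both elements are short and can be read in them. The 250 bases before the RefSeq start of transcription (assembly GRCm38.p6, on which mm10 is based) are given 5′ to 3′ on the strand of the gene. Capitals mark a match to ISRE, searched as GAAA, 2 bases of any kind and GAAA on either strand (TTTC, 2 bases and TTTC when read on the other), or to GAS, searched as TTC, 3 bases of any kind and GAA, which reads alike on both strands. No match to ISRE overlapped a match to GAS in the members. The Irf7 window lies on the minus strand at chr7:141266425-141266674, and the others lie on the plus strand, Irf9 at chr14:55603735-55603984, Stat2 at chr10:128270248-128270497 and Irf1 at chr11:53769764-53770013.
Irf7: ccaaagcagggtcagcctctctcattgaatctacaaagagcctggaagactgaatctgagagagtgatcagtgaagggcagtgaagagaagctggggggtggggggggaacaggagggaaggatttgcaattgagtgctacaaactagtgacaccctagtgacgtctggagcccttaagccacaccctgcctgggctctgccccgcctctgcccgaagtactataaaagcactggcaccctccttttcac
Irf9: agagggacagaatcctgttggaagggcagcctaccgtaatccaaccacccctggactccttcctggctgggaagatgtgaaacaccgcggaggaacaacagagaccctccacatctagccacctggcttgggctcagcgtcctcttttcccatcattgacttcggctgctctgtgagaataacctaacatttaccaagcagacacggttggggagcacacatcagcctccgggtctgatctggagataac
Stat2: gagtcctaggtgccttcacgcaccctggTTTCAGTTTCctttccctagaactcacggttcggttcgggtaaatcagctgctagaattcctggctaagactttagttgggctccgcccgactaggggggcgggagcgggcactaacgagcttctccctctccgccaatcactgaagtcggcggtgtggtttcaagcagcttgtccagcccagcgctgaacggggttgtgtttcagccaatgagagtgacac
Irf1: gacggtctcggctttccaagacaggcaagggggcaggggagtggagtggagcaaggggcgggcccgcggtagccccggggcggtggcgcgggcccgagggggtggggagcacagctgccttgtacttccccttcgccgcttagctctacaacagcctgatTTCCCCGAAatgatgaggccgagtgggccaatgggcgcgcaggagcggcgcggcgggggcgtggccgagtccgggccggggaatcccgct
The Stat2 window held 1 ISRE match, TTTCAGTTTC, that began 222 bases before the start. The Irf1 window held 1 GAS match, TTCCCCGAA, that began 90 bases before the start. The Irf7 and Irf9 windows held neither, which says only that these letters are not in these 250 bases. RefSeq gave Irf1 and Irf9 a second start, 459 and 594 bases inside the counted gene, and the windows before those held no match either.

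Of the other 5 members, Irf2 and Irf8 had matches, and the stretches round them are printed with 10 bases on either side where the window allows. Irf2 (chr8:46739495-46739523 and chr8:46739511-46739539, plus strand) held an ISRE and a GAS match, and Irf8 (chr8:120736177-120736205 and chr8:120736195-120736223, plus strand) held 2 GAS matches.
Irf2 ISRE: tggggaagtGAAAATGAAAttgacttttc
Irf2 GAS: aaattgacttTTCCGAGAAatgatgaaag
Irf8 GAS, outer: caaaagtgatTTCTCGGAAagagagcgct
Irf8 GAS, inner: aagagagcgcTTCAGAGAAggcggatttg
Irf3, Irf5 and Stat3 had none. In all, 2 of 9 members had an ISRE match and 3 of 9 a GAS match, against 3.46% and 8.13% of all 27025 genes with a promoter window. By windows of this length these were 2 and 3 of 12 for the members and 2.98% and 7.02% of all 32851. Matches stood in front of members that changed and of members that did not pass the test.

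The levels are given as CPM, the counts of a gene scaled to a common library size, with TMM scaling between libraries. Differences are log2 fold changes with their standard error (SE), and a gene was called at a Benjamini-Hochberg adjusted p under 0.05 in edgeR's quasi-likelihood test over the 17328 genes. The libraries held 44123208 to 73580338 counts, and the lowest count of any member in any library was 177 for Irf8 at 0d. In the edgeR fit, pools varied by a common coefficient of 8.85%. Over the 9 genes, replicate pools spread more widely than counting error alone would give at 0d, 1d and 30d. The chi-square divided by its degrees of freedom was 8.58, 8.26 and 26.1 there, and 1.49 at 3d, near counting error alone. Over all genes tested it was 15.1, 8.42, 7.19 and 25.4 at 0d, 1d, 3d and 30d. The labels name DRG neurons, but RNA came from whole dissected ganglia, and markers of sensory neurons (24353 to 26190 CPM over 14 genes) stood beside those of satellite glia (3068 to 3642 CPM over 7), myelinating Schwann cells (5535 to 10985 CPM over 7) and macrophages (148 to 178 CPM over 15). In such bulk samples a change in a gene's RNA per cell and a change in the number of cells that hold it cannot be told apart.

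The comparisons with 0d follow these genes from the inflamed paw through recovery. At 1d, Irf7 and Stat2 rose, and Irf9 and Irf1 had both libraries above the 6 others but missed the threshold. Irf2, Irf3, Irf5, Irf8 and Stat3 did not pass the test at any time point. Where the libraries of 2 time points are said to lie apart, this describes 2 values against 2 and is not a test. The share of all genes with such a gap was not counted. At 3d and 30d no member passed the test against the 0d control. Of the 9 members 2 were called at 1d, against 0.346% of all genes tested. By unadjusted p under 0.05 there were 6, beside 4.47% of all genes, with Irf1, Irf8, Irf9 and Stat3 in addition. The members and the gene lists below were chosen with earlier results of these data known. The shares set beside them, here and later, therefore describe them and do not test them.

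**Figure D1:**
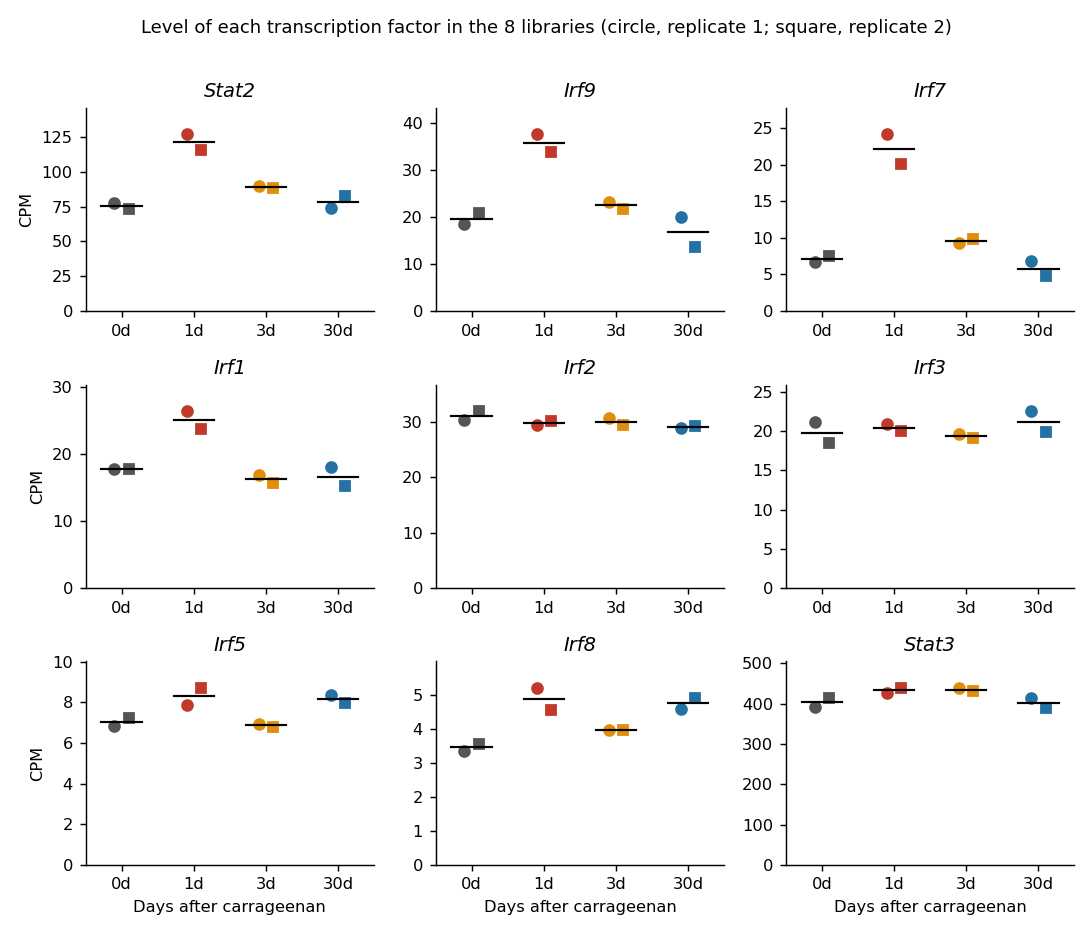
CPM (vertical axis, from 0) of the 9 genes in every library at 0d, 1d, 3d and 30d (horizontal axis, not to scale in time), with circles for replicate 1, squares for replicate 2 and a line at their mean. In Stat2, Irf9, Irf7 and Irf1 both 1d libraries lie above the other 6, as for Irf7 at 24.1 and 20.0 CPM against at most 9.78 CPM.

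Stat2 (chromosome 10 of mm10, 128270576 to 128292849, plus strand, 24 merged exons) encodes the STAT that is specific to type I and III interferon signalling. It measured 77.5 and 72.9 CPM before injection, 127 and 116 CPM on day 1, 89.6 and 88.3 CPM on day 3, and 74.3 and 82.2 CPM on day 30. The 1d libraries were the highest and the 3d libraries lay between them and 0d, without overlap, while the 30d libraries overlapped those of 0d. Its log2 fold change at 1d was 0.69 (SE 0.06, 95% interval 0.56 to 0.82, edgeR adjusted p = 4.30e-05). Stat2 had the seventh smallest p of all genes at 1d.

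Irf9 (chromosome 14, 55603985 to 55610030, plus strand, 11 merged exons) encodes the DNA-binding part of ISGF3. It measured 18.5 and 20.9 CPM before injection, 37.6 and 33.9 CPM on day 1, 23.3 and 21.8 CPM on day 3, and 20.1 and 13.6 CPM on day 30. Its 1d libraries stood above all others, and the 30d pair was the most widely spread. The log2 fold change at 1d was 0.86 (SE 0.16, 95% interval 0.50 to 1.22), larger than that of Stat2, but with an edgeR adjusted p of 0.0897 it was not called.

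Irf7 (chromosome 7, 141263183 to 141266424, minus strand, 10 merged exons) is itself induced by interferon and amplifies the type I response. It measured 6.67 and 7.52 CPM before injection, 24.1 and 20.0 CPM on day 1, 9.35 and 9.78 CPM on day 3, and 6.77 and 4.78 CPM on day 30. The 1d libraries were far above the rest, the 3d libraries stayed above those of 0d without overlap, and the 30d libraries overlapped those of 0d. Against 0d, the log2 fold change at 1d was 1.64 (SE 0.16, 95% interval 1.30 to 1.98, edgeR adjusted p = 9.21e-05), the largest of the 9 members. In fold terms this was 3.11.

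Irf1 (chromosome 11, 53770014 to 53778374, plus strand, 12 merged exons) is the first-described activator of the family. It measured 17.8 and 17.7 CPM before injection, 26.4 and 23.7 CPM on day 1, 16.9 and 15.6 CPM on day 3, and 18.0 and 15.3 CPM on day 30. The 1d libraries were the highest, the 3d libraries lay just below those of 0d without overlap, and the 30d libraries overlapped those of 0d. At 1d its log2 fold change was 0.50 (SE 0.10, 95% interval 0.28 to 0.72, edgeR adjusted p = 0.0653).

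Irf1, Irf7, Irf9 and Stat2 were thus 4 of 9 members with both 1d libraries above the other 6, a pattern that 3.28% of all tested genes had. Irf7 and Stat2 were called at 1d under all 18 other settings. Irf1 was called in 5 of 18 and Irf9 in 6 of 18, with adjusted p-values from 0.00662 to 0.626 and from 1.61e-06 to 0.666. Among these, leaving out 30d replicate 1 or 30d replicate 2 from the common fit brought both past the threshold, with 4 members called either way.

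**Figure D2:**
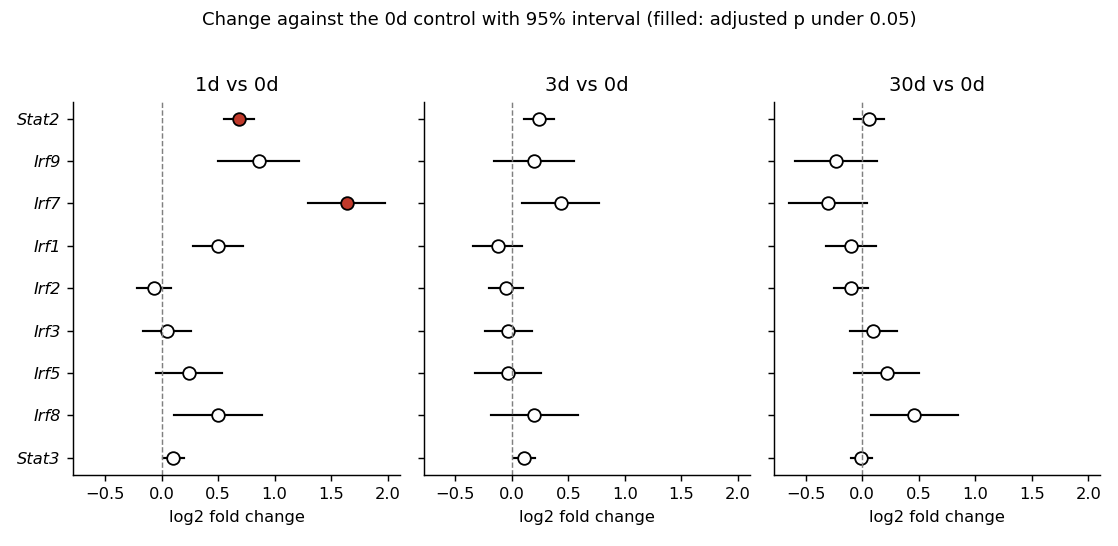
Log2 fold change against the 0d control (horizontal axis) of the 9 genes (vertical axis) at 1d, 3d and 30d, each estimated from 2 libraries per time point, with lines for the 95% interval and filled points for edgeR adjusted p under 0.05. The 2 filled points are Irf7 at 1.64 and Stat2 at 0.69, both at 1d.

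Smaller differences at 1d were those of Irf2 and Irf3. Irf2 (chromosome 8, 46739745 to 46847458, plus strand), the antagonist of IRF1, measured 30.4 and 32.0 CPM before injection, 29.4 and 30.2 CPM on day 1, 30.7 and 29.5 CPM on day 3, and 28.9 and 29.3 CPM on day 30. All 8 libraries lay within this narrow band. At 1d its log2 fold change was -0.07 (SE 0.07, 95% interval -0.22 to 0.09). Irf3 (chromosome 7, 44997648 to 45002848, plus strand), which is made constitutively and activated by phosphorylation, measured 21.2 and 18.5 CPM before injection, 20.9 and 20.0 CPM on day 1, 19.7 and 19.1 CPM on day 3, and 22.6 and 19.9 CPM on day 30. The 4 time points overlapped, except 3d with 30d and 3d with 1d. The log2 fold change at 1d was 0.05 (SE 0.10, 95% interval -0.17 to 0.26), so the interval leaves out a rise of the size seen for Irf1.

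Before injection, the myeloid members were the least abundant. Irf5 (chromosome 6, 29526625 to 29537320, plus strand) measured 6.82 and 7.22 CPM before injection, 7.90 and 8.71 CPM on day 1, 6.96 and 6.79 CPM on day 3, and 8.35 and 7.97 CPM on day 30. Its 1d and 30d libraries lay above those of 0d and 3d. The log2 fold change was 0.24 at 1d (95% interval -0.05 to 0.53) and 0.22 at 30d (95% interval -0.07 to 0.51). Irf8 (chromosome 8, 120736358 to 120756692, plus strand), a factor of macrophage and dendritic cell development, measured 3.35 and 3.55 CPM before injection, 5.20 and 4.56 CPM on day 1, 3.96 and 3.97 CPM on day 3, and 4.58 and 4.91 CPM on day 30. All 6 libraries after injection lay above both at 0d, a pattern that was not counted over all genes. At 3d the log2 fold change was 0.20 (SE 0.18, 95% interval -0.19 to 0.58), and Irf8 was not called in any comparison. The log2 fold change was 0.50 at 1d (SE 0.18, edgeR adjusted p = 0.814) and 0.46 at 30d (SE 0.18, edgeR adjusted p = 0.328). At 1d this was the same size as that of Irf1, with a wider interval of 0.11 to 0.89.

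Stat3 (chromosome 11, 100886810 to 100939511, minus strand) was the most abundant member, measuring 391 and 415 CPM before injection, 427 and 439 CPM on day 1, 438 and 431 CPM on day 3, and 414 and 388 CPM on day 30. The 1d and 3d libraries all lay above those of 0d and 30d, by a small margin. The log2 fold change was 0.10 at 1d (SE 0.04, 95% interval 0.01 to 0.20) and 0.11 at 3d (SE 0.04, 95% interval 0.01 to 0.20), with edgeR adjusted p-values of 1.00 and 0.731. Its error was the smallest of the members.

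Markers of myeloid cells are given beside these genes, since Irf5, Irf7 and Irf8 are known from such cells. The summed level of 15 macrophage markers was 170 and 148 CPM before injection, 178 and 176 CPM on day 1, 160 and 160 CPM on day 3, and 176 and 162 CPM on day 30, and 0 of 15 were called at 1d, their median change being 0.20 on the log2 scale. At 3d 1 was lower, the microglial and macrophage receptor Cx3cr1, at 5.64 and 5.06 CPM against 10.8 and 10.9 CPM before injection. The highest sum was that of 1d replicate 1, and 1d replicate 2 and 30d replicate 1 had the same sum to 3 digits. The 4 monocyte markers summed to 10.3 and 12.3 CPM before injection, 19.2 and 19.1 CPM on day 1, 21.1 and 20.0 CPM on day 3, and 24.9 and 14.4 CPM on day 30, so all later libraries lay above 0d. Of 9 neutrophil markers, Ly6g was not analysed here, and the sum of the other 8 ranged from 47.4 CPM in 0d replicate 1 to 240 CPM in 30d replicate 1. Neither the monocyte nor the neutrophil list had a gene called at any time point, and no marker of these lists was at 0 in all libraries. Markers of plasmacytoid dendritic cells, which hold much Irf7, summed to 1.22 to 2.25 CPM over 4 genes. The highest sum, that of 0d replicate 1, held 1.38 CPM of Cox6a2, while the median log2 fold change of the list at 1d was 0.47, with 0 called. Other lists had medians away from 0 at 1d as well, but in each of those given here 0d replicate 1 stood well apart from 0d replicate 2. The 7 skeletal muscle markers summed to 133 and 68.8 CPM before injection and 27.6 and 59.7 CPM on day 1, with a median log2 fold change of -1.32, and 1 was called lower, the myosin Myh1, at 1.98 and 1.80 CPM against 6.67 and 3.83 CPM. The 6 fibroblast markers summed to 1917 and 1295 CPM before injection and 1288 and 1334 CPM on day 1, with a median of -0.30. These sums overlapped, and 1 marker was called lower, the proteoglycan Lum, at 43.1 and 41.9 CPM against 66.1 and 53.6 CPM. The 7 myelinating Schwann cell markers summed to 10985 and 8025 CPM before injection and 7798 and 7849 CPM on day 1, so both 1d libraries lay below 0d, with a median of -0.26 and 0 called. The 5 erythroid markers summed to 141 and 282 CPM before injection and 259 and 270 CPM on day 1, with a median of 0.33 and 0 called. The part of these cells in the changes of the members and of the interferon-stimulated genes was not tested.

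**Figure D3:**
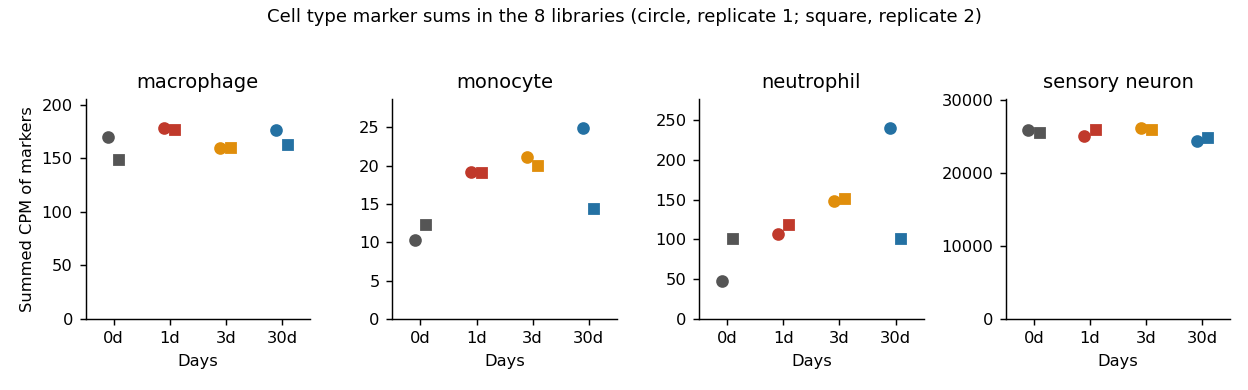
Summed CPM (vertical axes, from 0) of the markers of 4 cell types in each library by time point (horizontal axis, not to scale in time), with circles for replicate 1 and squares for replicate 2. The monocyte sums are 10.3 and 12.3 CPM at 0d and at least 14.4 CPM afterwards, and the neutrophil sum of 30d replicate 1, 240 CPM, stands apart.

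Levels of different genes were compared per kilobase of merged exon. At 0d the order of the mean CPM per kb was Stat3 (89.8), Stat2 (17.1), Irf2 (12.6), Irf3 (9.05), Irf9 (7.33), Irf1 (5.28), Irf7 (3.82), Irf5 (2.94) and Irf8 (1.00), and no neighbours in this order overlapped in their 2 libraries. At 1d Irf9 (13.3) took the third place, ahead of Irf2 (11.99) and Irf7 (11.87). The libraries of Irf2 and Irf7 overlapped, as did those of Irf7 and Irf9, while those of Irf9 lay above those of Irf2, so the place of Irf7 between these 3 was not resolved. Irf7 thereby moved from the seventh place to the level of Irf2. At 3d the order was that of 0d, except that Irf7 (5.15) stood just above Irf1 (4.84). At 30d Irf9 overlapped Irf1, and Irf5 (3.41) overlapped Irf7 (3.11).

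**Figure D4:**
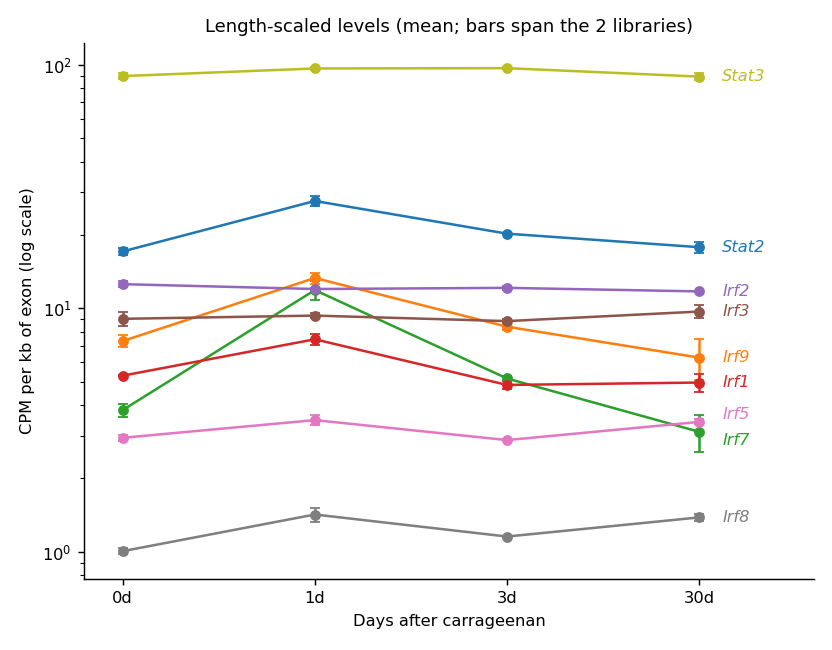
Mean CPM per kb of exon (vertical axis, log scale) of the 9 genes at each time point (horizontal axis, not to scale in time), with bars that span the 2 libraries. Irf7 climbs from 3.82 at 0d to 11.9 at 1d and is at 3.11 at 30d, and Stat3 stays at the top between 89.4 and 96.8.

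Irf7, Irf1 and Stat2 fell between 1d and 3d. Of the 9 members 3 were lower at 3d than at 1d, against 0.289% of all genes called in this comparison, and they were Irf7 (log2 fold change -1.21, SE 0.15, edgeR adjusted p = 0.00256), Irf1 (-0.62, SE 0.10, edgeR adjusted p = 0.0151) and Stat2 (-0.45, SE 0.06, edgeR adjusted p = 0.00418). Irf9 was at -0.67 (SE 0.16, edgeR adjusted p = 0.273) and was called in 4 of 18 other settings, DESeq2, the compared groups alone and without 30d replicate 1 or 30d replicate 2, with adjusted p-values from 5.46e-06 to 1.00. In DESeq2, 4 members were thus called in this comparison. Of the difference in mean CPM between 1d and 0d, 29.9% was left at 3d for Stat2, 17.8% for Irf9 and 16.5% for Irf7, while the mean of Irf1 was below its 0d level. The 3 calls rested on every library of the 2 time points except 1d replicate 2: none of the members passed without 1d replicate 1, without 3d replicate 1 or without 3d replicate 2, although the log2 fold changes stayed within -1.33 to -1.06 for Irf7. Where a library was left out, its time point had 1 library, assumed to vary like the others.

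At 3d, 0 of 9 members were called against 0d in edgeR, where 0.219% of all genes were called. By unadjusted p under 0.05 there were 3, Stat2 (log2 fold change 0.24, SE 0.06), Irf7 (0.43, SE 0.16) and Stat3, beside 5.94% of all genes, and DESeq2 and limma-voom called 0. Stat2 had the smallest adjusted p of the members, 0.213 in edgeR, with a range of 0.0387 to 1.00 over the other settings.

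At 30d, 0 of 9 members were called against 0d in edgeR, where 0.0231% of all genes were called, and DESeq2 and limma-voom also called 0. By unadjusted p under 0.05 there was 1 of 9, Irf8, beside 12.3% of all genes. Irf7 was at -0.30 (95% interval -0.65 to 0.04) and Irf9 at -0.23 (95% interval -0.59 to 0.13), with 30d replicate 2 the lowest of all libraries for both. Without 30d replicate 1, Irf9 was called lower than at 0d (log2 fold change -0.54, edgeR adjusted p = 0.0456), and without 30d replicate 2 it was at 0.03. 30d replicate 1 had the highest sums of neutrophil, monocyte and erythroid markers, the last at 515 CPM against 141 to 282 CPM in the other libraries, and its Schwann cell sum was the lowest.

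Compared with 1d, 4 of 9 members were lower at 30d, where 0.571% of all genes were called: Irf7 (log2 fold change -1.94, SE 0.16, edgeR adjusted p = 1.71e-05), Stat2 (-0.63, SE 0.06, edgeR adjusted p = 0.000101), Irf1 (-0.59, SE 0.10, edgeR adjusted p = 0.0147) and Irf9 (-1.09, SE 0.16, edgeR adjusted p = 0.0199). Irf7 and Stat2 kept the call under all 18 other settings. Irf9 kept it in 13 of 18 and lost it with the compared groups alone and without 1d replicate 1, 1d replicate 2, 3d replicate 1 or 3d replicate 2, and Irf1 lost it without 1d replicate 1 or 30d replicate 2, with adjusted p-values of up to 0.106 and 0.0945. Compared with 3d, 1 of 9 members was lower at 30d, Irf7 (-0.73, SE 0.16, edgeR adjusted p = 0.0445), where 0.935% of all genes were called. That call was held in 8 of 18 other settings, with adjusted p-values from 0.00284 to 0.456. It was lost without either 1d library, either 3d library or 30d replicate 2, with 0 members then called, and without 30d replicate 1 Irf9 was called as well.

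Interferon-stimulated genes, the targets of ISGF3 and of IRF1 and IRF7, were higher at 1d as a group. Of 44 such genes 31 rose at 1d, none fell, and 13 did not pass, with a median log2 fold change of 1.03, against 0.00 over all genes tested. Of all genes tested, 0.346% were called in this comparison. Isg15, a ubiquitin-like protein, went from 4.12 ± 0.0219 to 17.0 ± 1.03 CPM (SD, n = 2), a log2 fold change of 2.04 (SE 0.14, edgeR adjusted p = 3.39e-06). Ifit1 and Ifit3, which bind foreign RNA or partner with those that do, rose by 1.68 and 1.74, and Oasl2, a relative of the oligoadenylate synthetases, by 1.03. Without 1d replicate 1 or 0d replicate 1 the count was 16 and 19. Markers of skeletal muscle, fibroblasts and myelinating Schwann cells, whose values are given above, had medians below 0 at 1d, and those of monocytes and neutrophils had medians of 1.11 and 0.56.

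Of these 4 genes, 3 had an ISRE match before their start, as Stat2 did. One match of each is shown, from Isg15 (chr4:156200871-156200900, minus strand), Ifit1 (chr19:34640794-34640823, plus strand) and Ifit3 (chr19:34583397-34583426, plus strand), and Oasl2 had none.
Isg15: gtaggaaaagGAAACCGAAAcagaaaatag
Ifit1: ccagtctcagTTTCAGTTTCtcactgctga
Ifit3: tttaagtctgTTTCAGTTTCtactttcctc
Isg15 had 3 matches, which overlap, and Ifit1 and Ifit3 had 2 each. The ones shown for Ifit1 and Ifit3 have the same 10 letters as the match of Stat2, and the others do not. Of the 33 list genes with a promoter window, 14 (42.4%) had an ISRE match and 5 (15.2%) a GAS match, against 3.46% and 8.13% of all 27025 genes with one. Of the antigen presentation genes described next, 2 of 12 had an ISRE match.

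At 3d, where 0.219% of all genes were called against 0d, 3 of the 44 interferon-stimulated genes were still higher than at 0d. These were Ifit1 (0.76), Oasl2 (0.66) and Lgals3bp (0.31), the last chosen after its value was seen, and the median was 0.18. This count ranged from 0, without 3d replicate 1, to 6, and it was 1 without 0d replicate 1 or 3d replicate 2 and 5 without either 30d library. At 30d none of the 44 was called against 0d in edgeR, DESeq2 or limma-voom. Of the 10 other settings of method, 9 gave 0, and the highest count was 1. By unadjusted p under 0.05 there were 9, beside 12.3% of all genes, and the median was 0.00. Against 1d, 34 were lower at 30d, where 0.571% of all genes were called. Between 1d and 3d, where 0.289% of all genes were called, 24 of 44 were lower, with a median of -0.89. That count fell to 6, 4 and 6 without 1d replicate 1, 3d replicate 1 and 3d replicate 2, and was 38 with the libraries of 1d and 3d fitted alone.

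Antigen presentation genes, many of them targets of IRF1, rose in part. Of 14 genes 5 were higher at 1d and none lower, with a median of 0.38. Over all genes tested, 0.346% were called at 1d against 0d, 0.289% at 3d against 1d and 0.571% at 30d against 1d. Tap1 and Tap2, which together form the peptide transporter of the endoplasmic reticulum, rose by 1.42 and 0.65, the class I molecule H2-T23 by 1.10 and the immunoproteasome subunit Psmb9 by 1.12. The fifth was Tapbp (0.24), named after its value was seen. Without 0d replicate 2 or 1d replicate 1 the count was 3, and DESeq2 called 8. At 3d, 4 of the 14 were lower than at 1d, and 0 without 1d replicate 1, 3d replicate 1 or 3d replicate 2. At 30d, 6 were lower than at 1d, and 3 without 1d replicate 1, either 3d library or 30d replicate 2 or with the compared groups alone. None was called against 0d at 3d or 30d in edgeR, DESeq2 or limma-voom, where 4 and 2 had an unadjusted p under 0.05 in edgeR beside 5.94% and 12.3% of all genes. At 3d against 0d, edgeR called 1 without 0d replicate 2, 1d replicate 1 or 1d replicate 2, and 2 with the compared groups alone.

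Genes that act upstream of the members and are themselves interferon-stimulated were counted in the interferon-stimulated list, and 5 of them, named after their values were seen, rose at 1d in edgeR. The RNA sensor Ddx58 (RIG-I) rose by 0.73 on the log2 scale (SE 0.07, edgeR adjusted p = 0.000119), from 31.0 ± 2.07 to 51.5 ± 2.60 CPM (SD, n = 2). The RNA sensor Ifih1 (MDA5) rose by 0.86 (edgeR adjusted p = 0.0136), the RIG-I ubiquitin ligase Trim25 by 0.56 (0.0367) and Usp18, an inhibitor of interferon receptor signalling, by 1.42 (0.00133). The nucleic acid sensor Zbp1 rose from 1.23 ± 0.00739 to 5.29 ± 0.875 CPM (SD, n = 2, edgeR adjusted p = 0.00106). Dhx58 (LGP2), a relative of these RNA sensors in the same list, was at 1.09 (SE 0.27, edgeR adjusted p = 0.217). The counts that follow are of the upstream genes outside that list and so depend on this division. Of 24 other genes for interferon and cytokine receptors, JAK kinases and their inhibitors, 0 passed in edgeR in any of the 6 comparisons, DESeq2 and limma-voom also called 0 in each, and the median log2 fold change at 1d was 0.04. By unadjusted p under 0.05 there were 3 at 1d, 2 at 3d and 4 at 30d, beside 4.47%, 5.94% and 12.3% of all genes. Jak1, the kinase used by most of these receptors, measured 475 ± 20.3 CPM before injection and 470 ± 9.01 CPM (SD, n = 2) on day 1, and Lifr, a receptor that signals through STAT3, was at 476 ± 8.77 and 498 ± 31.7 CPM. Of 22 other sensors and adaptors that activate IRF3 and IRF7, 0 passed in edgeR in any comparison, with a median at 1d of 0.06. limma-voom also called 0 in each, and DESeq2 called 0 against 0d and at 3d against 1d but 1 at 30d against 3d and 1 at 30d against 1d. Without 30d replicate 1 or 30d replicate 2, edgeR called 1 at 1d and 1 at 3d against 0d, and with the compared groups alone 1 at 3d. Without 30d replicate 1, or with no filter on low counts, it called 1 at 30d against 3d and 1 at 30d against 1d. Against 0d, unadjusted p-values under 0.05 numbered 2 on day 1, 1 on day 3 and 2 on day 30, beside the same shares of all genes. In the fit over all libraries the largest log2 fold change of the list against 0d, 0.81 at 1d (SE 0.22, edgeR adjusted p = 0.341) and 0.81 at 3d (SE 0.22, edgeR adjusted p = 0.296), was that of Tmem173, the adaptor STING of the DNA-sensing pathway, named after its values were seen. Traf3, an adaptor of these pathways, was at -0.08 at 1d (SE 0.07), and Azi2, an adaptor of the kinase TBK1, at 0.05 (SE 0.05).

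Of 16 tested genes of the acute phase and others linked to STAT3, 0 passed against 0d at any time point in edgeR, with a median at 1d of -0.00. By unadjusted p under 0.05 there were 1, 4 and 3, beside 4.47%, 5.94% and 12.3% of all genes, and DESeq2 and limma-voom called 0. edgeR called 1 at 3d without 0d replicate 2 and 1 at 30d without 30d replicate 2. Saa3 and Reg3b of the list had too few counts. The most abundant were Serpina3n, a protease inhibitor, at 0.12 (SE 0.07) at 1d, and Mcl1, a survival factor, at -0.02 (SE 0.06). Between later time points, edgeR called 1 gene of the list, Serpina3n, lower at 30d than at 3d (-0.35), while DESeq2 called 2 at 30d against 3d and 1 at 30d against 1d. The count at 30d against 3d was 0 without 3d replicate 1, 3d replicate 2 or 30d replicate 2 and with no robust estimation, 3 without 30d replicate 1, and 2 with no filter on low counts or with the replicate block. At 30d against 1d it was 1 without either 0d library, and at 3d against 1d it was 1 with the compared groups alone.

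**Figure D5:**
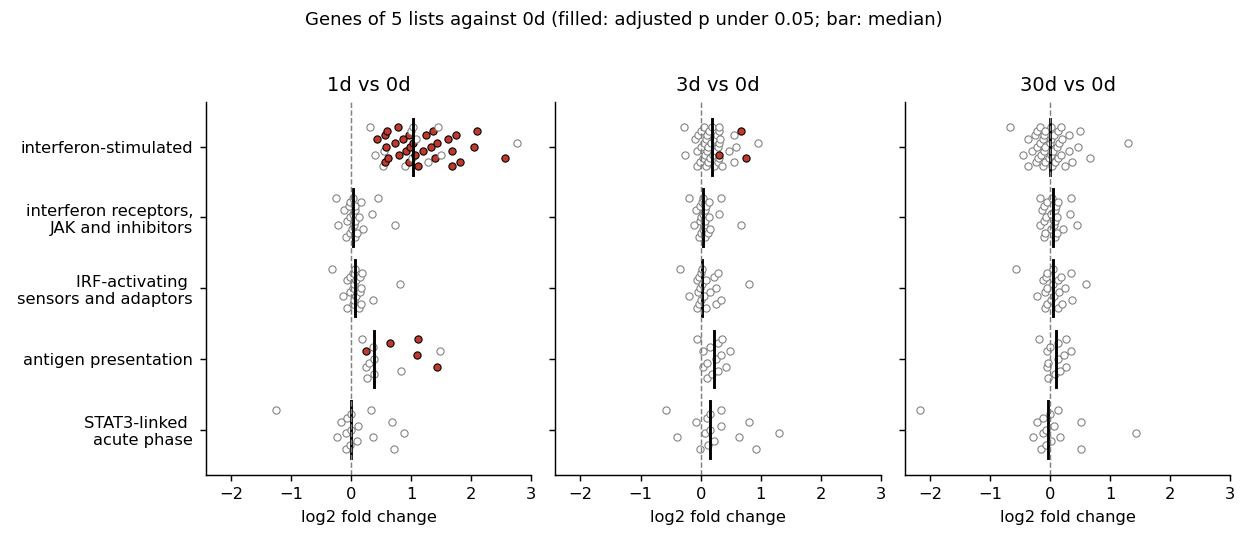
Log2 fold change against 0d (horizontal axis) of the tested genes of 5 lists (vertical axis, points spread for view) at 1d, 3d and 30d, with a bar at the median and filled points for edgeR adjusted p under 0.05. The interferon-stimulated genes lie around a median of 1.03 on day 1, 0.18 on day 3 and 0.00 on day 30, and the medians of the receptor and sensor lists lie at 0.04 and 0.06 at 1d.

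The genes whose log2 CPM followed each member most closely over the 8 libraries are given as a description, since all points share their libraries. Irf7 was closest to Ifit3 (Pearson r 0.99), Igtp (0.99) and Znfx1 (0.99). Stat2 was closest to Usp18 (0.98), Ddx60 (0.97) and Zbp1 (0.97), and Irf1 to Oasl1 (0.98), Gbp5 (0.98) and Parp14 (0.98). Irf9 was closest to Gas8 (0.99), Igtp (0.98) and Irf7 (0.98). For the members that were not called in any comparison the closest genes were others: Glmp, Stip1 and Calm3 for Irf2, Bhlhe40, Syt17 and Piezo1 for Irf3, Rab11fip5, Atp7b and Dcdc2b for Irf5, Trmt1, Syt2 and Mir5107 for Irf8, and Pced1b, Prkcd and Cep55 for Stat3, with r from 0.94 to 0.98. None of these 15 was called at 1d, where 0.346% of all genes were called. Genes picked for following an uncalled member could hardly be called, so this count is no contrast to the called members. The likeness was measured on the same libraries as the calls.

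The reads were counted without regard to strand, and a pair that overlapped several genes was counted for each. By the deposited coordinates no exon of another gene overlapped an exon of a member.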

How the data were processed

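Per the labels and the study's methods, RNA libraries (TruSeq kit, Illumina HiSeq) were trimmed with cutadapt 2.10, aligned to mm10 with STAR 2.7.5a and counted on UCSC genes with featureCounts 2.0.1. The authors deposited raw counts per gene for all 8 libraries in 1 table, without normalization. No column of another series was present.

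The members and gene lists were chosen with earlier results of these data known. In R 4.3.3, genes were filtered with filterByExpr (17328 of 24421 kept), scaled by TMM (factors 0.993 to 1.01) and tested in 1 edgeR 4.0.16 quasi-likelihood fit over all 8 libraries with time point as the only term. Benjamini-Hochberg adjustment was made within each of 6 comparisons, with a threshold of 0.05. The SE was derived from the F statistic (the size of the log2 fold change over √F). Log2 CPM used a prior count of 2. Alternatives included DESeq2 1.42.0 and limma-voom 3.58.1. The fits were tested on simulated counts. Named genes were all members, per list the 4 called at 1d with the smallest p (or the 2 most abundant), and the 3 genes most correlated with each member. Promoters came from RefSeq (GRCm38.p6). A promoter window was found for all 9 members and for 33 of the 44 interferon-stimulated genes.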

Additional observations from a re-analysis of the deposited data

Results flagged for a closer look

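In 8 cases, differences between the effects at 2 time points passed the test of the difference itself (edgeR, adjusted p under 0.05), and no explanation of them was tested. Irf7 was lower at 3d than at 1d by a log2 fold change of -1.21, as were Irf1 (-0.62) and Stat2 (-0.45). At 30d, Irf7 was lower than at 3d (-0.73). Against 1d, the values at 30d were -1.94 for Irf7, -1.09 for Irf9, -0.63 for Stat2 and -0.59 for Irf1. With 2 libraries per time point, no single library could be tested as lying apart from its group.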

How the results depend on the processing

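The 54 member values (9 genes, 6 comparisons) were recomputed under 18 other settings, 10 of method and 8 with a library left out. Of the 972 values so obtained, 908 kept their direction and their side of the threshold, 18 gained a call, 26 lost one and 20 changed sign. The members called at 1d numbered 2 in the fit reported and 4 with DESeq2, and 2 to 4 with a library left out. At 3d against 0d the count was 1 without the filter on low counts (Stat2), and 0 with any library left out. At 30d against 0d it was 0 to 1 with a library left out, at 3d against 1d 0 to 4, at 30d against 3d 0 to 2, and at 30d against 1d 2 to 4. At 30d against 3d it was 0 with upper quartile scaling, without robust estimation, with newer edgeR deviances, with limma-voom and with the compared groups alone. The cause was not tested.

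Sign changes were small and in members that were not called in the comparison. Upper quartile scaling put Stat3 at 0.0054 at 30d against 0d. With a library left out, Irf3 ranged from -0.051 to 0.15 at 1d and from -0.13 to 0.071 at 3d, and Irf5 from -0.071 to 0.011 at 3d. At 30d against 0d the ranges were -0.22 to 0.020 for Irf1, -0.54 to 0.026 for Irf9, -0.018 to 0.13 for Stat2 and -0.056 to 0.038 for Stat3. At 3d against 1d they were -0.013 to 0.044 for Irf2 and -0.014 to 0.024 for Stat3, and at 30d against 3d -0.093 to 0.15 for Irf1. At 30d against 1d they were -0.041 to 0.14 for Irf3, -0.095 to 0.046 for Irf5 and -0.13 to 0.058 for Irf8.

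Both Rep1 and Rep2 occur at every time point, but nothing says that a number marks a shared batch, and the deviations of same-numbered libraries correlated at -0.0144 to 0.0438. With the replicate number as a block, 3 members were called at 1d (Irf1 in addition), 0 at 3d, 0 at 30d, 3 at 3d against 1d, 1 at 30d against 3d and 4 at 30d against 1d, and 73, 50, 69, 77, 225 and 159 genes in all, against 60, 38, 4, 50, 162 and 99 without it. Over all genes, DESeq2 called 106, 107, 184, 110, 369 and 231, and the fit without the filter 95, 89, 177, 99, 358 and 213. With 2 pools per time point the errors of single genes rest on the spread shared over genes.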
